A study of Mus musculus with 6 samples.

Results

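Enzymes that add methyl groups to the lysines of histones, and enzymes that take them off, were examined in the spinal cord of mice that lack Sox2 in astrocytes. The 53 genes were taken by symbol from the protein-coding rows of the count table. They were the Kmt, Kdm, Setd and Prdm genes with a number, Nsd1 to Nsd3, Ehmt1, Ehmt2, Ezh1, Ezh2, Suv39h1, Suv39h2, Ash1l and Dot1l, with a summed count of at least 30 over all libraries. The table listed 35275 genes, 21397 of them protein-coding. Of 56 symbols that matched, Prdm12, Prdm13 and Prdm14 had summed counts of 19, 6 and 1 and were left out. Kdm5c, Kdm5d and Kdm6a, which lie on the sex chromosomes, were not part of the rule.

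Poly(A) RNA of whole spinal cord was sequenced from 3 Sox2 cKO and 3 Ctrl mice, with 1 mouse to a library. The Sox2 cKO mice were mGfap-Cre:Sox2fl/fl, in which the mouse Gfap promoter drives Cre recombinase in most astrocytes. The labels give the Ctrl mice as mGfap-Cre:Sox2+/+, whereas the methods describe Sox2fl/fl littermates and the design text names either allele alone, so whether the Ctrl mice of these libraries carried Cre cannot be told. All mice were C57BL/6 and both groups held males and females. The age is P90 in the labels' age field and P80 in the extraction protocol, and the integrity number of the RNA is above 6.8 in the labels and given a higher minimum in the methods. The question was how the loss of Sox2 in astrocytes changed the RNA of these enzymes in the tissue.

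A histone lysine carries up to a few methyl groups, and each site has its own enzymes. Methylation of lysine 4 of histone H3 (H3K4) marks promoters and enhancers in use, H3K36 and H3K79 methylation mark transcribed gene bodies, and H3K9, H3K27 and H4K20 methylation mark silent or compact chromatin. Most methyltransferases ("writers") carry a SET domain, DOT1L does not, and demethylases ("erasers") are either amine oxidases of the LSD type or JmjC oxygenases. In the nervous system these enzymes are known for their part in the switch from neural progenitors to neurons and glia, and inherited changes in many of them cause disorders of brain development.

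The libraries held between 21507911 and 28392184 reads counted on genes. Sox2, the targeted gene, was examined first, and Sox2 had 19.9, 14.8 and 29.5 CPM in Ctrl (libraries 2, 4 and 6) against 3.16, 2.70 and 2.98 CPM in Sox2 cKO (libraries 1, 3 and 5). It was lower in every Sox2 cKO library, with a log2 fold change of -2.86 ± 0.24 (SE, edgeR adjusted p = 0.00096). Markers of spinal cord tissue were present, and neuron genes summed to between 4682 and 5803 CPM over the libraries and astrocyte genes to between 3872 and 6061 CPM. Of 6 astrocyte genes 4 were lower in Sox2 cKO (5010 to 6061 CPM in Ctrl, 3872 to 4253 CPM in Sox2 cKO), as were 4 of 4 genes of oligodendrocyte precursors (168 to 202 CPM against 108 to 148 CPM), 1 of 4 ependymal genes was lower, 4 of 4 neutrophil genes were higher (9.37 to 15.3 CPM against 19.6 to 61.1 CPM), and 1 of 6 neuron genes was higher. The lists of oligodendrocytes, microglia, endothelium, meningeal fibroblasts, Schwann cells, red blood cells and dividing cells held 31 tested genes, of which edgeR called 0, DESeq2 4 and an unadjusted edgeR p under 0.05 9. With the length correction described below, 1 of 6 astrocyte genes (Aqp4) and 1 of 4 precursor genes (Gpr17) were called lower. In that fit 6 of 6 and 2 of 4 had an unadjusted edgeR p under 0.05. It also called 3 of 4 neutrophil genes and 1 gene each of the ependymal, neuron and oligodendrocyte lists. The marker shifts move with the groups, and their part in the values below was not tested. In RNA of a whole tissue, fewer cells of a type and less RNA per cell cannot be told apart. Ctrl library 2 stood nearer to Sox2 cKO libraries 3 and 5 (chi-square statistic per degree of freedom of 14.7 and 10.8 over genes) than to Ctrl libraries 4 and 6 (24.9 and 29.2). Against Sox2 cKO library 1 its value was 28.0.

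The members were expressed at the level of an average gene. Their median was 5.82 FPKM (reads per gene scaled to gene length and library total, as the authors deposited it), against 5.94 FPKM over the 16137 genes tested. Setd3, which methylates a histidine of actin and is placed here by its SET domain, was the highest at 63.5 FPKM, ahead of Setd7 at 33.9, the H3K9 methyltransferase Ehmt2 (G9a) at 27.7, the H4K20 methyltransferase Kmt5a at 26.3 and Ezh1 at 18.6. The lowest was Prdm1, a repressor of immune cells, at 0.126 FPKM, followed by Prdm6 at 0.666 and the demethylase Kdm4d at 0.674. Writers and erasers stood close together, with medians of 6.74 and 6.08 FPKM over 21 and 14 genes. Among paralogs of one site, Ezh1 exceeded Ezh2 (1.77 FPKM), Ehmt2 exceeded Ehmt1 (4.90 FPKM), and Suv39h1 (3.06 FPKM) exceeded Suv39h2 (0.881 FPKM).

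**Figure D1:**
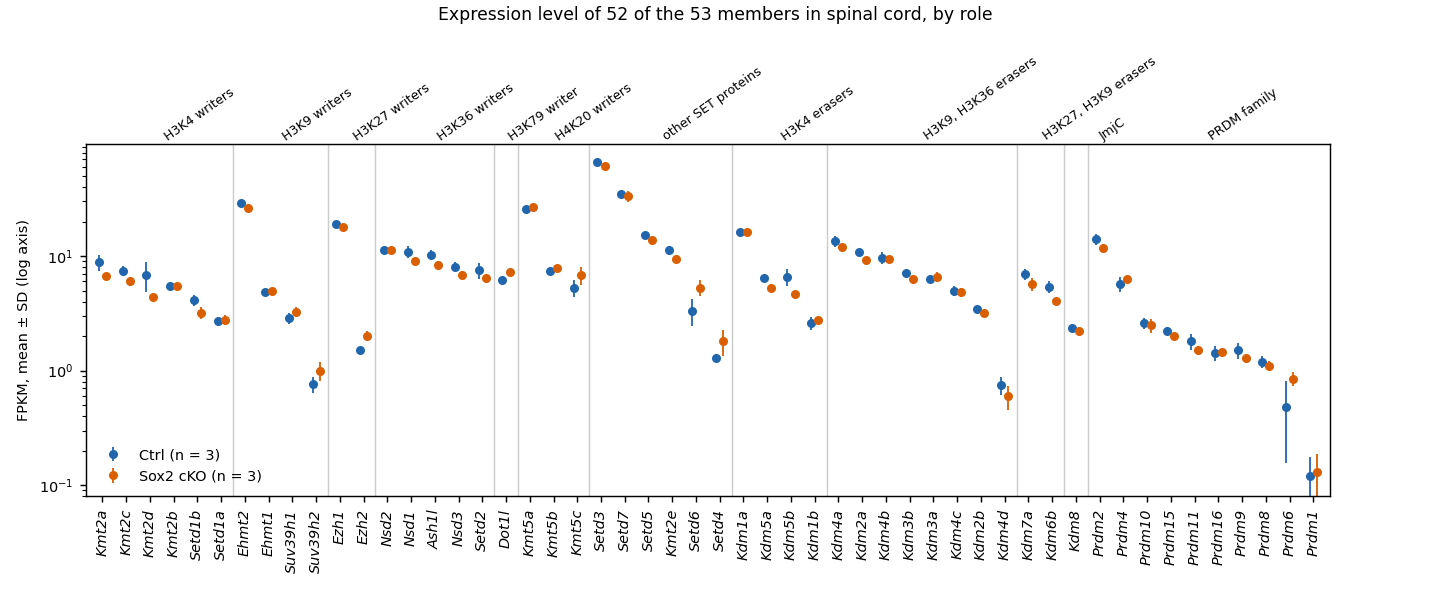
Mean FPKM with its SD in 3 Ctrl (blue) and 3 Sox2 cKO (orange) libraries for 52 of the 53 members, grouped by role and ordered by level, on a log axis. Setd3 stands at the top at 63.5 FPKM and Prdm1 at the bottom at 0.126 FPKM, and the groups lie close together beside the range between genes.

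More members were lower than higher in Sox2 cKO, among them the H3K4 methyltransferases Kmt2d and Kmt2a and the demethylases Kdm5b and Kdm6b, and this split was not seen once the trend with gene length was taken out. Of the 53 members 15 were called lower, 28.3%, and 1 was called higher, 1.89%, by edgeR's quasi-likelihood test with Benjamini-Hochberg adjustment over all genes tested, where 12.4% of all genes were lower and 12.2% were higher. The log2 fold change was negative for 43 of 53 members, against 48.0% of all genes, and its median was -0.19, against 0.02 for all genes. In 23 members every Sox2 cKO library lay below every Ctrl library in CPM (counts scaled to a common library size after TMM normalization), and in 5 members every one lay above. Over all genes 22.1% lay wholly below and 22.6% wholly above. All 16 members called by edgeR were also among the 19 called by DESeq2, which added Ehmt2, Setd3 and Setd5 as lower, so that it called 18 lower and 1 higher, where it called 15.5% of all genes lower and 13.4% higher. Limma on log2 FPKM tested 52 members and called 2 lower, Kdm5b and Kdm6b, and 1 higher, Setd6. With 0.1 and with 1 added to FPKM it called 6.07% and 6.20% of all genes lower, and 17.7% and 18.1% higher. Leaving out a library changed the counts of edgeR and DESeq2. Without Ctrl library 4 or without Sox2 cKO library 1, edgeR called 0 members, and 26 and 8 genes in all, although 19 and 20 members had an unadjusted p under 0.05. DESeq2 called 4 and 9 members lower in those fits, beside 8.07% and 10.4% of all genes, so that the 4 without Ctrl library 4 lay at the background. Without Ctrl library 6, Sox2 cKO library 3 or Sox2 cKO library 5 edgeR called 1, 5 and 11 members lower, beside 2.90%, 4.04% and 8.18% of all genes, and none higher. Without Ctrl library 2 it called 23 lower and 1 higher, where calls over all genes also rose, to 18.6% lower and 18.3% higher. In each of these edgeR fits between 40 and 43 members had a negative log2 fold change.

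**Figure D2:**
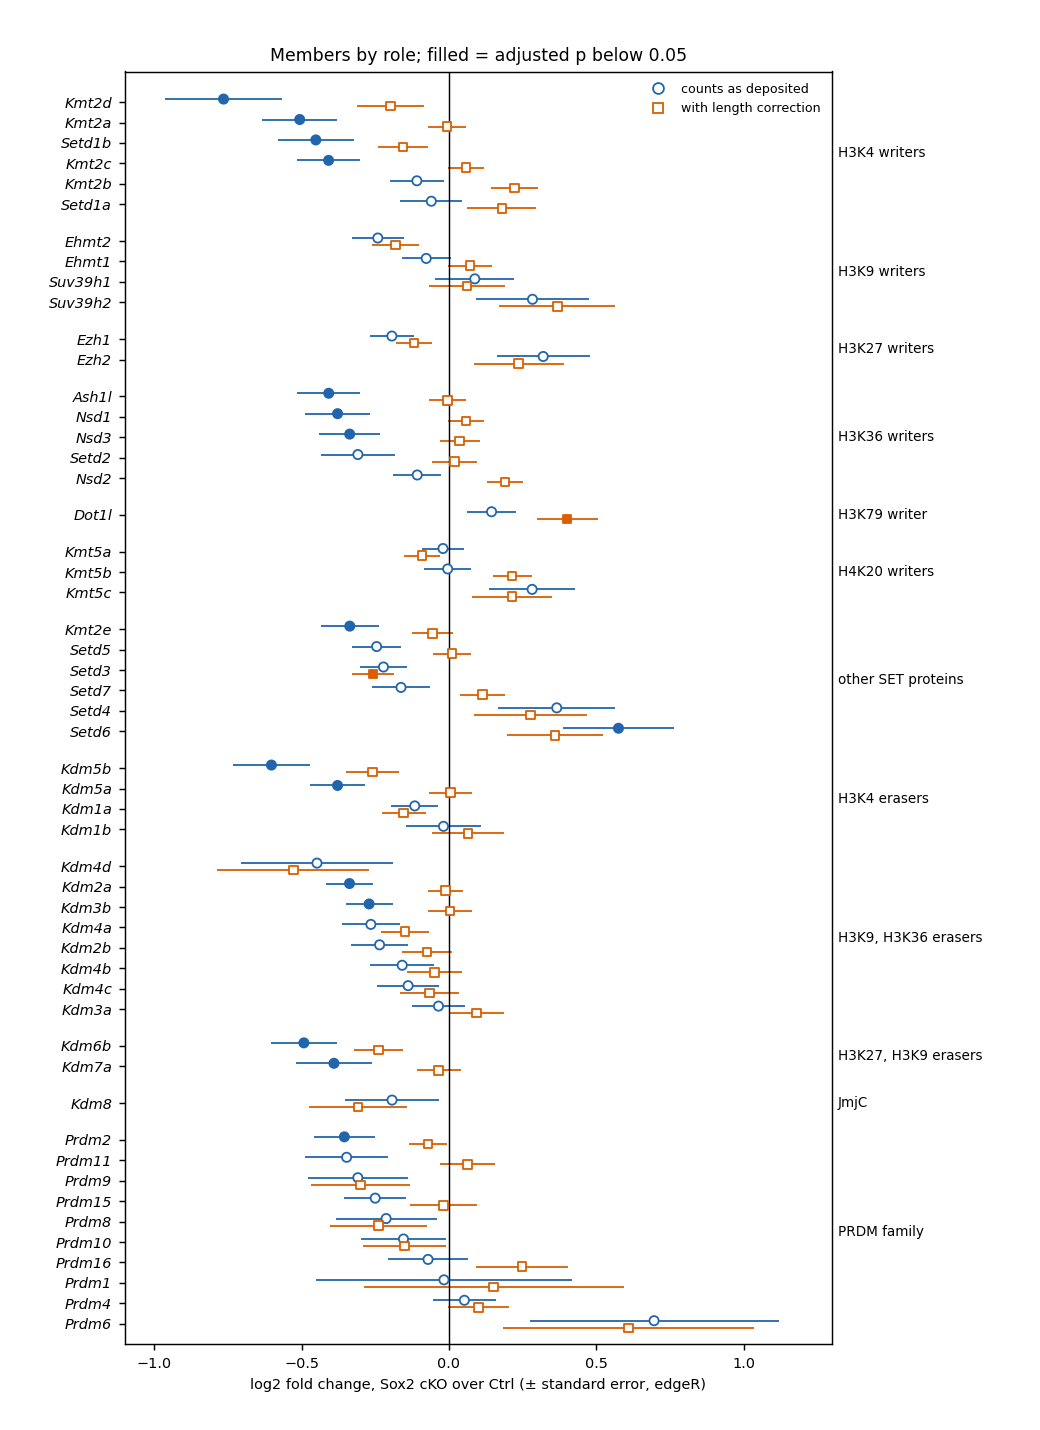
Log2 fold change (Sox2 cKO over Ctrl, n = 3 each) with its standard error, worked back from the edgeR test, for 52 of the 53 members, by role. Blue circles are from the counts as deposited and orange squares from the fit with length correction, and filled symbols have an adjusted p below 0.05. Most blue circles lie left of 0, with Kmt2d lowest among the filled at -0.76, whereas the orange squares lie on both sides, with only Dot1l and Setd3 filled.

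These fold changes went with the length of the genes. Length here is the gene length by which the deposited FPKM values divide, worked back from counts and FPKM. It is not the span of the gene on the chromosome. The members were long, with a median of 5281 bases against 3060 bases for all genes tested, and 42 of 53 exceeded that median. Spearman's correlation between log2 fold change and length was -0.67 over the 53 members and -0.48 over all 16137 genes, which share the same 6 libraries. Of the 53 members 29 lay in the longest class of genes, from 4869 bases upward, when all genes tested were cut into 5 classes of equal number by length, and that class held all 15 members called lower. The shortest of these was Kdm6b at 6654 bases. In the longest class 35.9% of all genes were called lower and the median log2 fold change was -0.25, and the 29 members there had a median of -0.34. Setd6, the member called higher, had 1656 bases and was the 1 member in the shortest class, where 30.4% of genes were called higher. When the trend of counts with length was taken out of each library by a lowess curve, the median log2 fold change of the members was 0.01, beside 0.0014 for all genes, and 25 of 53 were negative. In that fit Setd3 was lower and Dot1l was higher, with 6.99% of all genes called lower and 6.08% called higher. An unadjusted p was under 0.05 in 9 members. Setd3 and Dot1l were also called without Ctrl library 2. Without any other library the corrected fit called 0 members, where it called between 10 and 1067 genes in all. In corrected CPM 8 members lay wholly below Ctrl and 5 wholly above, where 19.4% and 18.0% of all genes did. Between fold change and GC content the correlation was 0.01 over the members, and members and all genes had median GC contents of 50.6% and 49.8%. Whether the trend with length arose in the tissue or in the making of the libraries cannot be told apart in these 6 libraries.

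**Figure D3:**
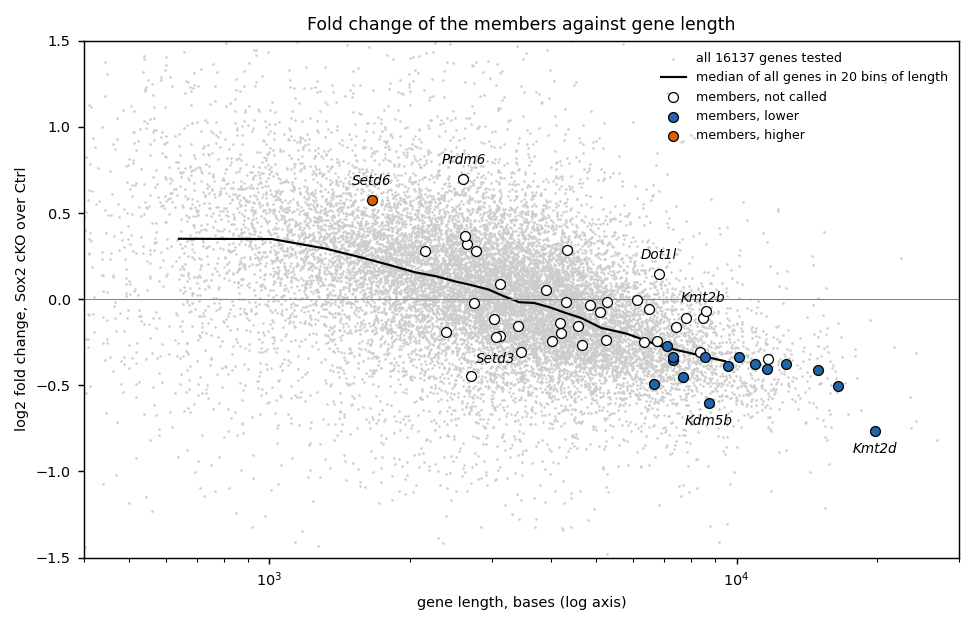
Log2 fold change against gene length (log axis) for all 16137 genes tested (grey), with the median of all genes in 20 bins of length (black line) and the members as circles. Blue circles are members called lower, orange is Setd6, called higher, and open circles were not called. The members lie along the line, and all the blue ones have 6654 bases or more. The frame leaves out 189 genes beyond its limits.

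Ctrl library 2 stood between the groups. The median member stood 0.18 and 0.12 above its mean of the 6 libraries on the log2 scale in Ctrl libraries 4 and 6, 0.01 below it in Ctrl library 2, and 0.11, 0.08 and 0.08 below it in Sox2 cKO libraries 1, 3 and 5. The longest class of genes stood at 0.20 and 0.18 in Ctrl libraries 4 and 6, at 0.02 in Ctrl library 2 and at -0.22, -0.08 and -0.08 in the Sox2 cKO libraries, while the shortest class moved the other way. With length correction the median member lay between -0.02 and 0.02 in every library. The members together, per 10000 reads on genes, took 26.6, 30.1 and 29.2 in Ctrl libraries 2, 4 and 6 against 24.7, 26.2 and 25.4 in Sox2 cKO libraries 1, 3 and 5.

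**Figure D4:**
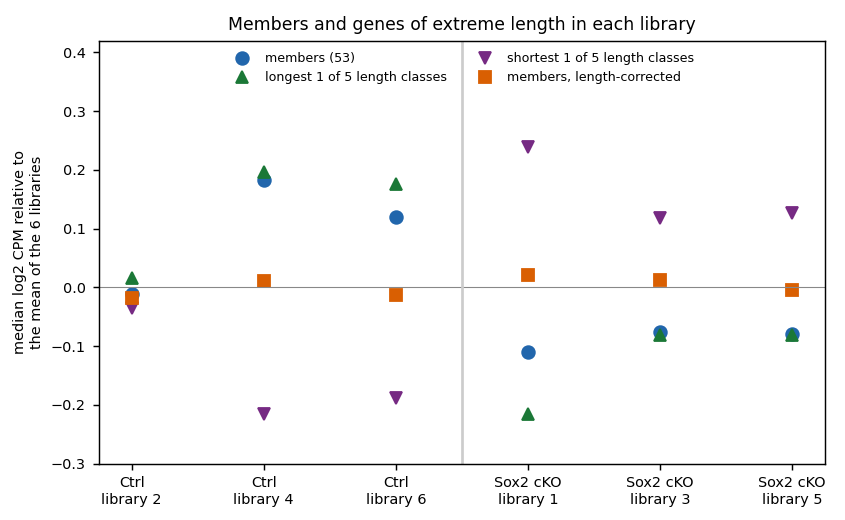
Median log2 CPM, relative to each gene's mean of the 6 libraries, for the members (blue circles), the longest (green) and the shortest (purple) of 5 length classes of the genes tested, and the members after length correction (orange squares). Members and long genes are high in Ctrl libraries 4 and 6 and low in the Sox2 cKO libraries, Ctrl library 2 lies near 0, and the corrected members lie within 0.03 of 0 throughout.

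The sequences around the start of the genes were read for a form of the core letters that the HMG box of SOX proteins recognises. The form searched was ACAAAG, or CTTTGT on the other strand. Windows of 300 bases, from 250 before to 50 after a transcription start, came from RefSeq on GRCm38.p6 and were found for 38 of the 53 members, 54 windows in all. These letters stood in 11 of the 54 windows (20.4%), belonging to 10 members, beside 13.9% of the 15430 windows of all genes tested and 18.7% of all 32851 windows. They were Ehmt2, Ezh2, Kdm2b (2 windows), Kdm4c, Kmt2d, Prdm10, Prdm11, Prdm15, Setd5 and Setd7. Of the 15 members called lower 5 had a window, and 1 of these, Kmt2d, held the letters. The members' windows were rich in CpG, with a median of 28 CpG pairs, beside 19 in the windows of all genes tested. Among the members with no window given were Kdm6b, Kmt2e, Kdm5a, Prdm2, Setd1b, Kdm2a, Nsd2, Kmt2b, Kdm3b, Nsd1, Kdm4b, Prdm6, Ash1l and Nsd3. The 4 windows below are those of the members lowest in fold change (Kmt2d, chr15:98871156-98871455, minus strand; Kdm5b, chr1:134559928-134560227, plus strand), of the member called higher (Setd6, chr8:95715663-95715962, plus strand), and of Ezh2 (chr6:47594981-47595280, minus strand), the Polycomb writer with a positive fold change whose groups did not overlap in CPM. Capitals mark the searched letters, and a match is only a match of letters. The paper gives the shorter CAAAG and its variants as the SOX2 motif, and these were not searched. The Kmt2d window also holds CAAAG outside the capitals.
Kmt2d: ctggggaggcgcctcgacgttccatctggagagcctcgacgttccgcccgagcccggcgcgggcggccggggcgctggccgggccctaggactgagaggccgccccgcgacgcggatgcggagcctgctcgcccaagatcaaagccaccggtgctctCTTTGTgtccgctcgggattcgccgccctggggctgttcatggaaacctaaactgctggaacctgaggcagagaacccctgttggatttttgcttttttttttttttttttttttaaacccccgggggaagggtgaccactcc
Kdm5b: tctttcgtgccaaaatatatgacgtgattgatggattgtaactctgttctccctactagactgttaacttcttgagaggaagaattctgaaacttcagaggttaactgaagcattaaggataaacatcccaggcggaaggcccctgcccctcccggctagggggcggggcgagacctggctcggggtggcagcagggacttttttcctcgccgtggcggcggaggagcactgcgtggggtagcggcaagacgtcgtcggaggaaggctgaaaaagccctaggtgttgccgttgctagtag
Setd6: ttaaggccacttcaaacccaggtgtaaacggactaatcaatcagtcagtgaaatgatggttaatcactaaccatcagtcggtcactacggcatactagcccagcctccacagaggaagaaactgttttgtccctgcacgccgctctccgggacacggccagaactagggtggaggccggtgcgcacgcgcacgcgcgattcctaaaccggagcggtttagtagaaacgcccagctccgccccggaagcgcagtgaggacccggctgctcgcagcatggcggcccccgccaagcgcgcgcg
Ezh2: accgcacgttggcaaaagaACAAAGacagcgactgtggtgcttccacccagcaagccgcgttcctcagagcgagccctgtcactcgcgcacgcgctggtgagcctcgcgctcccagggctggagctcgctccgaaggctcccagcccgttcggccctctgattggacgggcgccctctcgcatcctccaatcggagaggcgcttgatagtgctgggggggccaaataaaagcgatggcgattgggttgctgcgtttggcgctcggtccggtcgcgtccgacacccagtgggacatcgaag

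Of the 6 H3K4 methyltransferases, the MLL and SET1 enzymes, 4 were lower and the median log2 fold change was -0.43. All 6 lie in the longest class of genes, where 35.9% of all genes were called lower and the median was -0.25. Over all genes tested 12.4% were called lower. Kmt2d (MLL4, chr15:98831669-98871204, minus strand), which places a single methyl group on H3K4 at enhancers, had the largest fall of the members called. Kmt2d had 90.4, 162 and 174 CPM in Ctrl (libraries 2, 4 and 6) against 79.1, 82.9 and 89.1 CPM in Sox2 cKO (libraries 1, 3 and 5). Ctrl libraries 4 and 6 were high, Ctrl library 2 stood just above the Sox2 cKO libraries, and the groups did not overlap. It had a log2 fold change of -0.76 ± 0.20 (SE, edgeR adjusted p = 0.023), and -0.20 ± 0.11 with length correction. Kmt2d is also the longest member by the length used here, with 19823 bases, though not by its span on the chromosome.

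Kmt2a had 121, 172 and 161 CPM in Ctrl (libraries 2, 4 and 6) against 97.9, 115 and 107 CPM in Sox2 cKO (libraries 1, 3 and 5). Kmt2a (MLL1, chr9:44803355-44881296, minus strand), the H3K4 methyltransferase that keeps Hox genes on, was thus lower in every Sox2 cKO library, with a log2 fold change of -0.51 ± 0.13 (SE, edgeR adjusted p = 0.021). Kmt2c had 101, 127 and 119 CPM in Ctrl (libraries 2, 4 and 6) against 77.7, 93.9 and 90.1 CPM in Sox2 cKO (libraries 1, 3 and 5), again without overlap. Kmt2c (MLL3, chr5:25271798-25498783, minus strand), the partner of Kmt2d at enhancers, had a log2 fold change of -0.41 ± 0.11 (SE, edgeR adjusted p = 0.024). Setd1b had 27.9, 35.5 and 34.7 CPM in Ctrl (libraries 2, 4 and 6) against 20.1, 25.9 and 25.6 CPM in Sox2 cKO (libraries 1, 3 and 5). Setd1b (chr5:123142193-123168629, plus strand), which trimethylates H3K4 at promoters, was low in each Sox2 cKO library, with a log2 fold change of -0.45 ± 0.13 (SE, edgeR adjusted p = 0.031). With length correction the values were -0.01 for Kmt2a, 0.06 for Kmt2c and -0.16 for Setd1b, none of them called. The remaining 2 H3K4 methyltransferases were not called. Kmt2b (MLL2), of 8469 bases, had 42.5, 52.1 and 50.6 CPM in Ctrl and 46.1, 44.1 and 44.5 CPM in Sox2 cKO. Setd1a had 18.8, 18.9 and 16.7 CPM in Ctrl and 18.1, 18.4 and 15.8 CPM in Sox2 cKO. Their log2 fold changes were -0.11 and -0.06, and the libraries of both groups overlapped in each. The ratio of Kmt2d to its paralog Kmt2b in FPKM was 0.909, 1.33 and 1.47 in Ctrl libraries 2, 4 and 6. It was 0.733, 0.803 and 0.856 in Sox2 cKO libraries 1, 3 and 5, lower in every Sox2 cKO library. Kmt2d is the longer gene, and the trend with length was not taken out of this ratio. With length correction Kmt2b and Setd1a had positive values of 0.22 and 0.18.

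Of the 4 H3K4 demethylases, the erasers of this mark, 2 were lower, beside 12.4% of all genes. Both lie in the longest class, where 35.9% of all genes were called lower. Kdm5b (JARID1B, chr1:134560171-134635285, plus strand), which takes off the trimethyl mark, gave the smallest adjusted p of all members. Kdm5b had 46.7, 63.3 and 69.8 CPM in Ctrl (libraries 2, 4 and 6) against 38.0, 39.9 and 40.5 CPM in Sox2 cKO (libraries 1, 3 and 5). The 3 Sox2 cKO libraries lay within a narrow range below all the Ctrl libraries, and the log2 fold change of -0.60 ± 0.13 (SE, edgeR adjusted p = 0.015) passed in limma on FPKM as well. With length correction its groups still did not overlap and its value was -0.26 ± 0.09 (edgeR adjusted p = 0.081). Kdm5a had 68.6, 77.0 and 71.9 CPM in Ctrl (libraries 2, 4 and 6) against 49.3, 59.1 and 59.0 CPM in Sox2 cKO (libraries 1, 3 and 5). Kdm5a (JARID1A, chr6:120364124-120444574, plus strand), its close relative, was thus lower in all the Sox2 cKO libraries, with a log2 fold change of -0.38 ± 0.09 (SE, edgeR adjusted p = 0.020), and stood at 0.01 with length correction. The ratio of Kdm5b to Kdm5a in FPKM was 0.857, 1.03 and 1.22 in the Ctrl libraries and 0.969, 0.850 and 0.865 in the Sox2 cKO libraries, which overlap. The LSD-type enzymes were not called. Kdm1a (LSD1, chr4:136550540-136602723, minus strand), the highest of this role at 16.2 FPKM, had 48.4, 53.7 and 51.1 CPM in Ctrl and 44.7, 48.1 and 48.6 CPM in Sox2 cKO. Those libraries overlapped, with a log2 fold change of -0.12 ± 0.08 (SE, edgeR adjusted p = 0.31). Kdm1b (LSD2) had a log2 fold change of -0.02 and overlapping groups.

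Of the 4 H3K9 methyltransferases edgeR called 0, and DESeq2 and an unadjusted edgeR p under 0.05 picked 1, Ehmt2. Ehmt2 (G9a, chr17:34898469-34914052, plus strand), which dimethylates H3K9 as a pair with Ehmt1 (GLP), was the highest of them. Ehmt2 had 109, 128 and 127 CPM in Ctrl (libraries 2, 4 and 6) against 109, 99.6 and 98.9 CPM in Sox2 cKO (libraries 1, 3 and 5). Ctrl library 2 and Sox2 cKO library 1 met at the same level, so the groups overlapped, with a log2 fold change of -0.24 ± 0.09 (SE, edgeR adjusted p = 0.071). DESeq2 called it lower (DESeq2 adjusted p = 0.046), and its length-corrected value was -0.18 ± 0.08. Ehmt1 had a log2 fold change of -0.08, although its groups just failed to touch, with 25.4, 25.9 and 25.8 CPM in Ctrl and 23.5, 24.7 and 25.0 CPM in Sox2 cKO. The trimethylating enzymes Suv39h1 and Suv39h2 had positive values of 0.09 and 0.28, and their groups overlapped.

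Ezh1 and Ezh2, the H3K27 methyltransferases of Polycomb repressive complex 2, had fold changes of opposite sign, neither past the threshold in edgeR or DESeq2. Ezh1 (chr11:101191115-101226463, minus strand), the form of cells that no longer divide, made up most of the pair. Ezh1 had 78.6, 83.3 and 89.3 CPM in Ctrl (libraries 2, 4 and 6) against 72.1, 74.7 and 72.8 CPM in Sox2 cKO (libraries 1, 3 and 5). All Sox2 cKO libraries were lower, with a log2 fold change of -0.19 ± 0.08 (SE, edgeR adjusted p = 0.083). Ezh2 had 4.13, 3.83 and 4.49 CPM in Ctrl (libraries 2, 4 and 6) against 5.67, 4.78 and 5.10 CPM in Sox2 cKO (libraries 1, 3 and 5). Ezh2 (chr6:47530139-47595341, minus strand), the form of dividing cells and progenitors, was thus higher in all the Sox2 cKO libraries, with a log2 fold change of 0.32 ± 0.16 (SE, edgeR adjusted p = 0.16). The ratio of Ezh2 to Ezh1 in FPKM was 0.0834, 0.0729 and 0.0798 in Ctrl libraries 2, 4 and 6 against 0.125, 0.102 and 0.111 in Sox2 cKO libraries 1, 3 and 5, without overlap. This ratio was picked after its values were seen and was not tested. Ezh1 has 4207 bases and Ezh2 2652, and with length correction the log2 fold changes were -0.12 and 0.24, where the libraries of Ezh2 overlapped. Beside these values the 4 listed genes of dividing cells together stood at 4.26 to 7.34 CPM in Ctrl and at 3.10 to 5.36 CPM in Sox2 cKO, a sum made up mostly of Mki67 and Top2a. Mki67 and Top2a had log2 fold changes of -0.70 and -0.76 (edgeR adjusted p = 0.12 and 0.095), whereas Cdk1 had one of 1.18 (edgeR adjusted p = 0.12). With length correction the values of Mki67, Top2a and Cdk1 were -0.31, -0.60 and 1.13, none of them called. Ccnb1, with a mean of 0.317 CPM in Ctrl and 0.412 CPM in Sox2 cKO, was too low to be tested.

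Kdm6b and Kdm7a, which act on H3K27 and H3K9, were both lower. Both lie in the longest class of genes, where 35.9% of all genes were called lower. Kdm6b (JMJD3, chr11:69398508-69413675, minus strand) removes the trimethyl mark that Polycomb places on H3K27 and is known as a gene of fast induction. Kdm6b had 31.1, 38.8 and 41.4 CPM in Ctrl (libraries 2, 4 and 6) against 24.7, 27.2 and 27.2 CPM in Sox2 cKO (libraries 1, 3 and 5). The Sox2 cKO libraries were all low, with a log2 fold change of -0.49 ± 0.11 (SE, edgeR adjusted p = 0.017), and limma on FPKM called it too. Its length-corrected value was -0.24 ± 0.08 (edgeR adjusted p = 0.081), with the groups still apart. The ratio of Kdm6b to Ezh1 in FPKM was 0.250, 0.294 and 0.293 in the Ctrl libraries. In the Sox2 cKO libraries it was 0.216, 0.230 and 0.236, lower in each. Kdm6b is the longer gene, at 6654 bases against 4207, and the trend with length was not taken out of this ratio. Kdm7a had 58.6, 73.8 and 75.8 CPM in Ctrl (libraries 2, 4 and 6) against 43.8, 56.4 and 58.6 CPM in Sox2 cKO (libraries 1, 3 and 5). Kdm7a (chr6:39136623-39206789, minus strand), which removes dimethyl marks from H3K9 and H3K27, only just lay below Ctrl, since Sox2 cKO library 5 and Ctrl library 2 nearly met. Its log2 fold change of -0.39 ± 0.13 (SE, edgeR adjusted p = 0.050) stood at the edge of the threshold and its length-corrected value was -0.03.

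Of the 5 H3K36 methyltransferases 3 were lower, beside 12.4% of all genes. All 5 lie in the longest class, where 35.9% of all genes were called lower. Ash1l (chr3:88950622-89079375, plus strand) dimethylates H3K36 and opposes Polycomb. Ash1l had 111, 136 and 127 CPM in Ctrl (libraries 2, 4 and 6) against 81.7, 102 and 98.0 CPM in Sox2 cKO (libraries 1, 3 and 5). The Sox2 cKO libraries were the lower 3, with a log2 fold change of -0.41 ± 0.11 (SE, edgeR adjusted p = 0.025). Nsd1 had 122, 158 and 157 CPM in Ctrl (libraries 2, 4 and 6) against 105, 119 and 112 CPM in Sox2 cKO (libraries 1, 3 and 5). Nsd1 (chr13:55209782-55318325, plus strand), which dimethylates H3K36 between genes, was likewise apart, with a log2 fold change of -0.38 ± 0.11 (SE, edgeR adjusted p = 0.033). Nsd3 had 73.9, 92.7 and 88.3 CPM in Ctrl (libraries 2, 4 and 6) against 62.6, 64.6 and 74.5 CPM in Sox2 cKO (libraries 1, 3 and 5). For Nsd3 (chr8:25601601-25719667, plus strand) Sox2 cKO library 5 lay above Ctrl library 2, so the groups overlapped, and the log2 fold change of -0.34 ± 0.10 (SE, edgeR adjusted p = 0.039) was nonetheless called. Nsd2 (chr5:33820725-33897975, plus strand), the highest of the role at 11.4 FPKM, had 87.1, 93.6 and 95.3 CPM in Ctrl and 78.6, 91.5 and 86.1 CPM in Sox2 cKO. Its libraries overlapped, with a log2 fold change of -0.11 ± 0.08 (SE, edgeR adjusted p = 0.35). Setd2, which makes the trimethyl form on transcribed genes, had a log2 fold change of -0.31 (edgeR adjusted p = 0.095) and overlapping groups. With length correction Ash1l, Nsd1, Nsd3 and Setd2 stood at -0.01, 0.06, 0.04 and 0.02, and Nsd2 at 0.19 ± 0.06 (edgeR adjusted p = 0.063) with no overlap. In FPKM the ratio of Nsd1 to Nsd2 was 0.849, 1.03 and 1.003 in the Ctrl libraries and 0.815, 0.790 and 0.792 in the Sox2 cKO libraries. Nsd1 is the longer gene, at 12784 bases against 7786, and the trend with length was not taken out of this ratio.

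Of the 8 JmjC demethylases of H3K9 and H3K36 2 were lower, beside 12.4% of all genes. All 8 had a negative log2 fold change, from -0.45 for Kdm4d to -0.04 for Kdm3a. With length correction the 8 values ran from -0.53 for Kdm4d to 0.09 for Kdm3a, with a median of -0.06. Kdm2a (chr19:4314419-4398285, minus strand) binds unmethylated CpG islands and removes dimethyl H3K36. Kdm2a had 91.0, 101 and 98.9 CPM in Ctrl (libraries 2, 4 and 6) against 71.7, 81.2 and 77.5 CPM in Sox2 cKO (libraries 1, 3 and 5). Each Sox2 cKO library was lower, with a log2 fold change of -0.34 ± 0.08 (SE, edgeR adjusted p = 0.018). Kdm3b had 48.5, 54.2 and 53.2 CPM in Ctrl (libraries 2, 4 and 6) against 44.0, 43.6 and 41.6 CPM in Sox2 cKO (libraries 1, 3 and 5). Kdm3b, which removes H3K9 methylation, was also lower throughout, with a log2 fold change of -0.27 ± 0.08 (SE, edgeR adjusted p = 0.035). With length correction the values of Kdm2a and Kdm3b were -0.01 and 0.0040. Kdm4a (chr4:118136957-118180043, minus strand), an eraser of trimethyl H3K9 and H3K36, was the highest of the role at 12.8 FPKM. Kdm4a had 56.8, 65.7 and 73.5 CPM in Ctrl (libraries 2, 4 and 6) against 52.4, 54.4 and 56.3 CPM in Sox2 cKO (libraries 1, 3 and 5). The libraries did not overlap although Sox2 cKO library 5 and Ctrl library 2 nearly met, with a log2 fold change of -0.27 ± 0.10 (SE, edgeR adjusted p = 0.072). Kdm2b, which brings a variant Polycomb complex to CpG islands, was likewise wholly below Ctrl at a log2 fold change of -0.24 (edgeR adjusted p = 0.096). Kdm4b and Kdm4c had values of -0.16 and -0.14 and overlapped. Kdm4d, a short gene of 2695 bases with few reads, had 1.75, 2.54 and 2.03 CPM in Ctrl and 1.80, 1.67 and 1.17 CPM in Sox2 cKO. It was not called either way, at -0.53 ± 0.26 with length correction. Over all 14 demethylases the median log2 fold change was -0.27, with 6 lower. Over the 21 writers with a known histone site it was -0.11, with 7 lower and 16 negative. Of all genes 12.4% were called lower, and of those in the longest class 35.9%. With length correction these medians were -0.06 and 0.06, and edgeR called 0 demethylases, with 2 at an unadjusted p under 0.05.

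Dot1l (chr10:80755206-80795461, plus strand), the H3K79 methyltransferase, was a long gene with a positive fold change. Dot1l had 45.0, 44.1 and 40.4 CPM in Ctrl (libraries 2, 4 and 6) against 50.7, 46.0 and 46.5 CPM in Sox2 cKO (libraries 1, 3 and 5). Every Sox2 cKO library was higher by a little, with a log2 fold change of 0.14 ± 0.08 (SE, edgeR adjusted p = 0.22). At 6808 bases it lies in the longest class, and with length correction its value was 0.40 ± 0.10 (edgeR adjusted p = 0.036), the 1 rise called in that fit. Kmt5a (SET8, chr5:124439930-124462308, plus strand), which places the first methyl group on H4K20 and is needed for chromosome compaction, was the most expressed of its role. Kmt5a had 74.1, 70.3 and 73.3 CPM in Ctrl (libraries 2, 4 and 6) against 69.8, 74.2 and 70.6 CPM in Sox2 cKO (libraries 1, 3 and 5). The libraries overlapped and the log2 fold change was -0.02, a sign that turned with upper quartile scaling and in limma on FPKM. Kmt5b and Kmt5c, which add the further groups, had values of -0.0043 and 0.28 with overlapping libraries. Kmt5b, at 6130 bases, stood at 0.21 ± 0.07 with length correction (edgeR adjusted p = 0.058).

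The 6 SET proteins with another, debated or unknown substrate held the 1 member called higher and 1 called lower. Setd6 (chr8:95715881-95719010, plus strand) methylates the NF-kB subunit RelA and the histone variant H2A.Z. Setd6 had 7.22, 4.70 and 5.12 CPM in Ctrl (libraries 2, 4 and 6) against 9.66, 8.46 and 7.29 CPM in Sox2 cKO (libraries 1, 3 and 5). The Sox2 cKO libraries were all higher, though Sox2 cKO library 5 exceeded Ctrl library 2 by a small margin, with a log2 fold change of 0.58 ± 0.19 (SE, edgeR adjusted p = 0.048). Its length-corrected value was 0.36 ± 0.16 (edgeR adjusted p = 0.15), and the groups then overlapped. Kmt2e had 78.2, 94.9 and 81.9 CPM in Ctrl (libraries 2, 4 and 6) against 60.3, 73.2 and 68.4 CPM in Sox2 cKO (libraries 1, 3 and 5). Kmt2e (MLL5, chr5:23434441-23504235, plus strand), which reads H3K4 methylation and has little activity of its own, was low in every Sox2 cKO library, with a log2 fold change of -0.34 ± 0.10 (SE, edgeR adjusted p = 0.035) and -0.06 with length correction. Setd3 (chr12:108106431-108179314, minus strand) was the most expressed member. Setd3 had 198, 208 and 224 CPM in Ctrl (libraries 2, 4 and 6) against 183, 181 and 176 CPM in Sox2 cKO (libraries 1, 3 and 5). All the Sox2 cKO libraries were lower, with a log2 fold change of -0.22 ± 0.08 (SE, edgeR adjusted p = 0.066). Its 3056 bases are close to the median of all genes, and it stood at -0.26 ± 0.07 with length correction (edgeR adjusted p = 0.043), the 1 fall called in that fit. Setd5, which acts with corepressor complexes, was wholly below Ctrl at a log2 fold change of -0.25 (edgeR adjusted p = 0.053) and at 0.01 with length correction. Setd7, which methylates H3K4 in vitro and many other proteins, had 262, 271 and 266 CPM in Ctrl and 204, 253 and 257 CPM in Sox2 cKO. Its groups were apart with library 1 far below the rest of Sox2 cKO, and the log2 fold change of -0.16 ± 0.10 (SE, edgeR adjusted p = 0.25) was not called. Setd4 had a log2 fold change of 0.37 and stood wholly above Ctrl by a narrow margin, with 3.45, 3.78 and 3.33 CPM in Ctrl and 5.80, 3.86 and 4.04 CPM in Sox2 cKO.

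**Figure D5:**
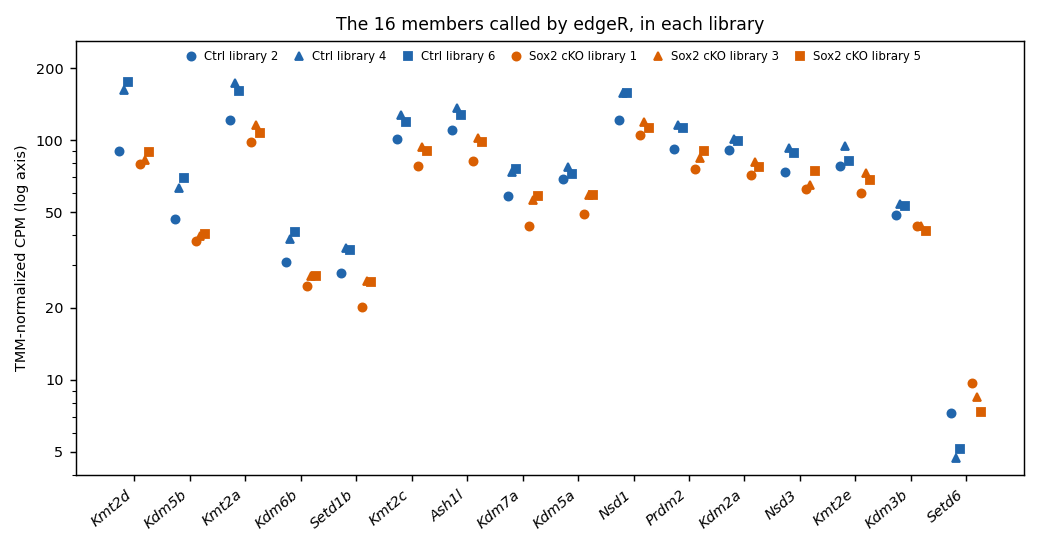
CPM after TMM normalization (log axis) of the 16 members called by edgeR in each Ctrl (blue) and Sox2 cKO (orange) library, ordered by fold change. Ctrl library 2 (blue circle) is the lowest Ctrl library in all 15 members called lower, Sox2 cKO library 1 (orange circle) is the lowest of its group in 14 of the 15, and the orange symbols lie below the blue ones except in Nsd3, where they overlap, and in Setd6, where they lie above.

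Kdm8 (JMJD5, chr7:125444676-125462269, plus strand), a JmjC hydroxylase, had 5.11, 6.15 and 6.28 CPM in Ctrl and 4.57, 5.01 and 5.74 CPM in Sox2 cKO. Its groups overlapped, with a log2 fold change of -0.19 ± 0.16 (SE, edgeR adjusted p = 0.39). PRDM proteins pair a domain related to SET with zinc fingers, and only some are enzymes. Prdm2 (RIZ1, chr4:143107391-143212995, minus strand), an H3K9 methyltransferase and the most expressed of the 11 at 12.9 FPKM, was the 1 called. Prdm2 had 91.5, 115 and 113 CPM in Ctrl (libraries 2, 4 and 6) against 75.8, 84.2 and 89.6 CPM in Sox2 cKO (libraries 1, 3 and 5). The 3 Sox2 cKO libraries were lower, library 5 by a small margin from Ctrl library 2, with a log2 fold change of -0.35 ± 0.10 (SE, edgeR adjusted p = 0.034) and -0.07 with length correction. Prdm16, known for its part in neural stem cells and astrocytes, had 13.6, 10.5 and 14.1 CPM in Ctrl and 11.9, 12.9 and 11.5 CPM in Sox2 cKO. Those libraries overlapped, with a log2 fold change of -0.07. Prdm9, the H3K4 methyltransferase of meiosis, was found at 1.40 FPKM, with a log2 fold change of -0.31 (edgeR adjusted p = 0.20). Prdm6 varied widely within Ctrl, at 1.26, 2.20 and 0.435 CPM in Ctrl and 1.93, 1.94 and 2.53 CPM in Sox2 cKO, and its value of 0.70 was not called. Prdm8 and Prdm15 lay wholly below Ctrl, at -0.21 and -0.25. Prdm1, Prdm4, Prdm10 and Prdm11 overlapped, at -0.02, 0.05, -0.15 and -0.35.

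Of 54 genes that work with these enzymes or are enzymes outside the symbol rule, 10 were lower (18.5%) and 3 were higher (5.56%), beside 12.4% and 12.2% of all genes. Their log2 fold changes had a median of -0.01, and their median lengths, by list, ran from 3250 to 6672 bases. Among 13 subunits of the COMPASS and MLL complexes, Hcfc1, a host cell factor that docks SET1 and MLL enzymes, was lower at -0.46 (edgeR adjusted p = 0.015), as was the coactivator Ncoa6 at -0.40 (edgeR adjusted p = 0.016). Dpy30, a core subunit of 799 bases that all these enzymes share, was higher at 0.53 (edgeR adjusted p = 0.018), and its fellow core subunits Wdr5, Ash2l and Rbbp5 were not called, at 0.28, -0.06 and -0.04. Of 9 Polycomb repressive complex 2 subunits 1 was called. Phf1 had 29.8, 25.4 and 22.7 CPM in Ctrl (libraries 2, 4 and 6) against 43.3, 41.5 and 36.3 CPM in Sox2 cKO (libraries 1, 3 and 5). Phf1, which brings the complex to H3K36 methylation and CpG DNA, was higher in every Sox2 cKO library, with a log2 fold change of 0.64 ± 0.12 (SE, edgeR adjusted p = 0.013) and 0.53 ± 0.10 with length correction, called there as well. The core subunits Eed and Suz12 had values of 0.21 and -0.08.

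Of 6 partners and readers of H3K9 methylation 3 were lower, beside 12.4% of all genes. Cbx3 had 96.8, 104 and 125 CPM in Ctrl (libraries 2, 4 and 6) against 77.6, 75.2 and 82.6 CPM in Sox2 cKO (libraries 1, 3 and 5). Cbx3 (HP1 gamma), a reader of that mark and a gene of only 1889 bases, was lower in each Sox2 cKO library, with a log2 fold change of -0.47 ± 0.10 (SE, edgeR adjusted p = 0.015) and -0.65 ± 0.11 with length correction, called in both fits. Atf7ip, which stabilises Setdb1, was lower at -0.33 (edgeR adjusted p = 0.017), and the third was Cbx5 (HP1 alpha). Of 6 partners of DOT1L 2 were lower, Mllt6 at -0.52 and Aff4 at -0.39 (edgeR adjusted p = 0.026 and 0.025). Of 5 CoREST subunits, which work with Kdm1a, edgeR and DESeq2 called 0, with 1 at an unadjusted edgeR p under 0.05, and their median was 0.14. Of 9 methyltransferases outside the rule 2 were lower and 1 was higher, among them Smyd1, known from muscle, at -0.60 (edgeR adjusted p = 0.018), and Smyd2, at 0.30 (edgeR adjusted p = 0.026). Of 6 demethylases outside the rule 1 was lower. With length correction 2 of the 54 were lower, Cbx3 and Smyd1, and 3 were higher, Phf1, Pagr1a and Mllt10, Pagr1a and Mllt10 being named after their values were seen, where 6.99% and 6.08% of all genes were called.

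Several members overlap other genes in the annotation, and how reads over both genes were counted was not examined. In GENCODE M21, 23 of the 53 members shared exon bases with another gene, 22 of them with a gene on the opposite strand. The library kit was directional, but the sources do not say if reads were counted by strand, and without it reads from both strands could not be told apart. Among members called lower, Kmt2e shared 972 bases with Srpk2, a kinase gene with 25080 counts over the libraries, Kdm3b shared 3468 bases with Gm26538 (33 counts), Ash1l shared 352 with Dap3 (10707 counts), and Kdm5a shared 251 with Ccdc77 (990 counts). Kdm6b and Kdm7a shared 286 and 287 bases with antisense genes of 49 and 130 counts.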

How the data were processed

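Poly(A) RNA of spinal cord was sequenced single-end. The authors aligned reads to mm10 with STAR 2.5, counted them per gene with HTSeq 0.6.1 and deposited these counts and FPKM values, which divide the counts by gene length and library total. Table columns are numbered 1 to 6. Even numbers were taken as Ctrl and odd ones as Sox2 cKO, and the group means then matched those the authors list for 1999 of 1999 genes, and for 0 when the groups were exchanged. Which column is which replicate is not known. 1 member is not reported by name here. The members and lists were chosen with earlier results of these data known.

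The main test was that of edgeR 4.0.16 under R 4.3.3 on the counts (filterByExpr, TMM, quasi-likelihood test, no covariates, adjusted p below 0.05), which tested 16137 genes with a biological coefficient of variation of 0.119. The SE given for edgeR was worked back from this test. It is the absolute log2 fold change divided by the square root of the F statistic. The length correction took a lowess curve (span 0.3) of log counts against gene length as an offset in each library. Scripts were tested on simulated data. Alternatives were DESeq2 1.42.0, upper quartile scaling, no filter, at least 10 counts in every library, limma 3.58.1 on log2(FPKM + 1) and log2(FPKM + 0.1) for genes of mean FPKM of at least 0.5, length and GC correction, and leaving out each library. Fits by DESeq2 and with length correction that leave out a library were chosen after seeing the data. The FPKM ratios between genes were not among the planned results and were not tested. Ratios of Ehmt2 to Ehmt1 and of Setd7 to Setd3 were also taken, and their groups overlapped. Values in every library are given for called members and for the most expressed member of each role. Of the partners called the 10 of lowest adjusted p are named, and Cbx5 besides. The p-values measure the spread between 3 mice a group. Positions and gene types came from GENCODE M21 (GRCm38), which matched 34490 of the 35275 identifiers, and promoter windows from RefSeq (GRCm38.p6).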

Additional observations from a re-analysis of the deposited data

How the results depend on the processing

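The count of members called lower, 15, was 12 to 18 with DESeq2, other scaling, other filters and GC correction. It was 1 with length correction and 2 in limma on log2(FPKM + 1) and on log2(FPKM + 0.1). Leaving out 1 library gave 0 to 23 in edgeR, 4 to 23 in DESeq2 and 0 to 6 with length correction, while the share of all genes called lower ran from 0.030% to 18.6%, 8.07% to 19.3% and 0.042% to 14.1%. Members called higher, 1, were 0 with GC correction, 0 to 1 without a library in edgeR and DESeq2, and 0 to 4 with length correction (4 without Ctrl library 2, where 12.8% of all genes were higher). The lower count was 0 in edgeR without Ctrl library 4 or without Sox2 cKO library 1, and without Ctrl library 2 it was 23. Partners called lower, 10, were 2 with length correction, 4 in both limma fits and 0 to 13 without a library. Those called higher, 3, were 6 with upper quartile scaling, where 14.3% of all genes were higher. They were 9 in both limma fits, where 17.7% and 18.1% of all genes were higher, and 0 to 10 without a library. Members wholly below Ctrl, 23, were 8 with length correction, where 19.4% of all genes lay wholly below. They were 15 in both limma fits, for which the share over all genes was not taken. The median log2 fold change of members, -0.19, was -0.079 in limma on log2(FPKM + 1), where the median of all genes was 0.09 (0.11 on log2(FPKM + 0.1), with 6.07% of all genes lower and 17.7% higher), and turned to 0.0051 with length correction (0.024, 0.0036, -0.0057, -0.0025, 0.020 and 0.0093 without Ctrl library 2, 4 or 6 and Sox2 cKO library 1, 3 or 5). With length correction the sign turned from negative to positive in 18 members, among them Kmt2b (0.22), Setd1a (0.18), Setd7 (0.11), Kdm3b (0.0040), Kdm5a (0.0051), Kmt2c (0.057), Nsd1 (0.058), Nsd2 (0.19) and Nsd3 (0.036), and that of Kmt5a turned in both limma fits (0.078 and 0.076) and with upper quartile scaling (0.024). The cause of these changes was not tested beyond the trend that each fit removes. Sox2 kept its direction and call in edgeR, also without each library, in limma and in DESeq2 over all 6 libraries. No paired analysis was possible because the columns carry no replicate numbers, so the planned replicate block was not run.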
